A study of Homo sapiens with 6 samples.

Results

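A set of 56 named protein-coding genes on the short arm of chromosome 3 (3p), from TRNT1 near the tip of the arm to GNL3, is described here in glutamine-independent and parental MDA-MB-231 breast cancer cells. They are 56 of the 28265 gene rows in each count table, and were listed because many of them were higher in the glutamine-independent cells in these same libraries. Their difference between the groups is therefore a description. Calls of single genes come from a fit over all genes, and for the 56 they support nothing. MDA-MB-231 is an established human triple-negative breast cancer line. MDA-MB-231GlnIND (GlnIND below) is a derivative kept in RPMI without glutamine and with 10% dialyzed fetal bovine serum for more than 6 weeks, and the parental cells grew in RPMI with glutamine and 10% fetal bovine serum. The groups thus differ in cell line, glutamine and serum together, which cannot be told apart. Nothing in the labels tells a clonal GlnIND line from a mixed population. Poly(A) RNA of 3 GlnIND and 3 parental libraries was sequenced, and separate cultures for the libraries of a group are not stated.

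The short arm of chromosome 3 is often lost in carcinomas of the kidney, lung and other tissues, and it carries genes studied as tumour suppressors, SETD2 among them. The 56 genes have varied work: some repair DNA, some modify chromatin, some build complexes with subunits encoded on other chromosomes. RNA libraries measure transcripts, and DNA copy number was not measured here.

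Library totals were 21276815, 22798692 and 24594248 counts in GlnIND and 21741371, 18256219 and 20066433 counts in parental cells. Levels are CPM (counts scaled to the size of the library), scaled with TMM factors, which correct library size on the assumption that most genes do not differ. That assumption is uncertain here, since 56.3% of the tested genes were called different. Signs of values near 0 therefore depend on the scaling. Markers of the line, VIM, CD44, AXL, EGFR, CAV1 and KRT18, were at 99.1 CPM or more in every library. ESR1, PGR and CDH1 were at 0.458 CPM or less, and ERBB2 was at 65.2, 61.8 and 64 CPM in GlnIND, against 31.5, 35.5 and 41.4 CPM in parental cells. EPCAM was at 1.88, 2.16 and 2.61 CPM in GlnIND, against 17.2, 13.7 and 12 CPM in parental cells, and ESRP1 was at 2.69, 4.54 and 2.84 CPM in GlnIND, against 0.298, 0.114 and 0.312 CPM in parental cells. Markers of other cell types were low: PTPRC was at 0.248 CPM or less, HBB and ALB were at 0, PECAM1 was at 4.71, 3.87 and 4.45 CPM in GlnIND, against 2.48, 2.4 and 2.34 CPM in parental cells, and COL1A1 was at 12.2, 13.1 and 11.5 CPM in GlnIND, against 5.51, 3.78 and 5.72 CPM in parental cells. The part of these differences in the results was not tested. In bulk RNA, fewer cells of a type and less RNA per cell cannot be told apart.

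Over the 56 genes, the median log2 fold change of GlnIND over parental cells was 0.31, which is 1.24-fold. All 56 passed the filter on low counts. The log2 fold changes ran from -0.54 for IRAK2 to 1.02 for FANCD2, with quartiles at 0.11 and 0.46. Values were above 0 for 50 of the 56 genes (89.3%), beside 52.2% of all 13949 genes tested, whose median was 0.03. In fold terms, 10 genes were more than 1.5-fold higher in GlnIND, beside 2799 of all 13949 genes. Of the 258 other tested genes between TRNT1 and GNL3, 96 were more than 1.5-fold higher. Among the 56, 25 lay between 1.2-fold and 1.5-fold, 15 lay between 1-fold and 1.2-fold, and 6 were at or below the parental level. The edgeR quasi-likelihood test, with an adjusted p under 0.05, called 36 of the 56 higher and 1 lower, beside 28.4% and 27.9% of all genes. In 39 genes every GlnIND library was above every parental library, and in 1 gene every GlnIND library was below, beside 33.7% and 31.3% of all genes. The genes were chosen on this contrast, so nothing is read from those counts.

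**Figure D1:**
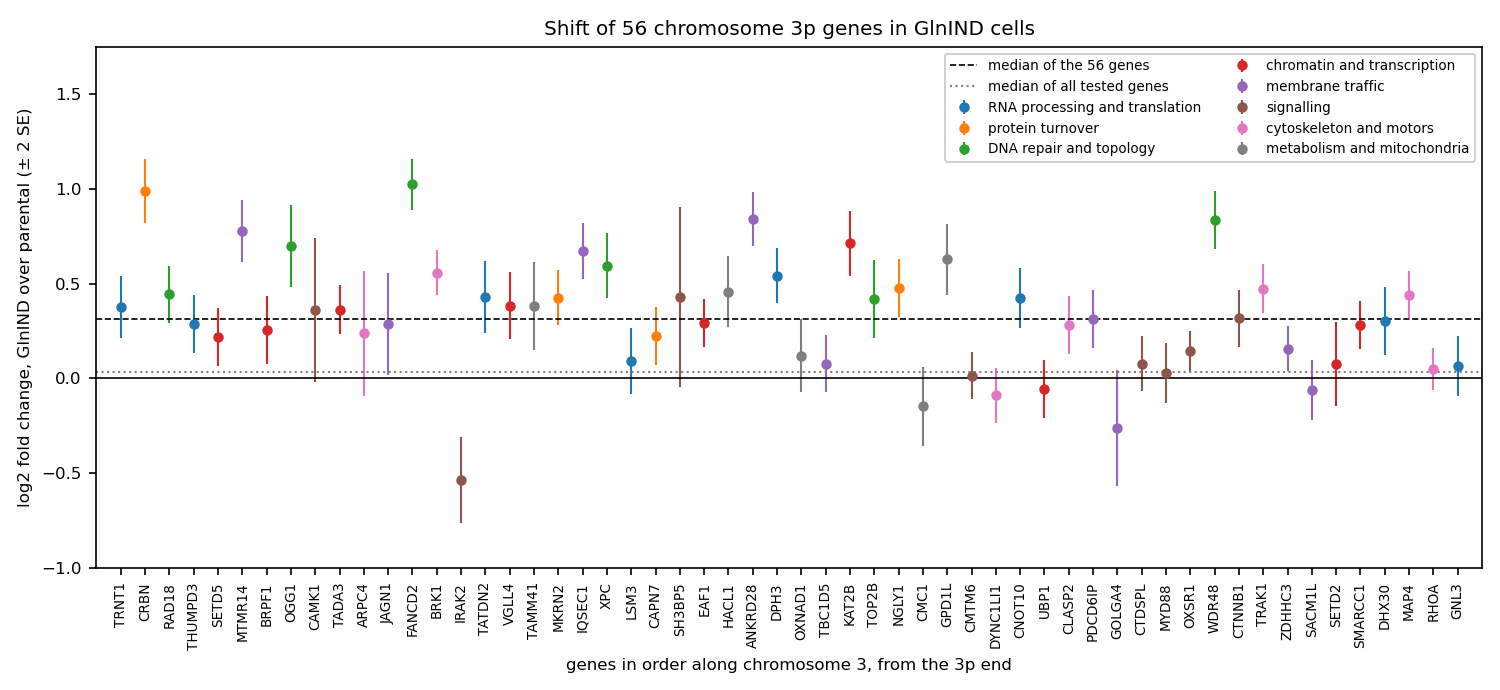
Log2 fold change of GlnIND over parental cells (y axis) for each of the 56 genes, in order along chromosome 3 from the tip of 3p (x axis), coloured by role. Points are estimates and bars are 2 standard errors. Points scatter around the dashed median of 0.31, with FANCD2, CRBN and ANKRD28 above it and IRAK2 at -0.54.

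The values of the 56 genes were spread more widely than the error of a single gene. The interquartile range of the log2 fold changes was 0.35 for the 56 genes, 0.66 for the 258 other tested genes between TRNT1 and GNL3 (0.51 for the 206 of them at or above the lowest mean CPM of the set) and 0.81 for all genes. The 56 were listed because many of them were higher, and the part of that choice in the range of the set was not tested. The median standard error (SE) of a gene was 0.0781. The median of 0.31 lay within 2 SE of the value of 24 genes, while 15 genes were above it by more than 2 SE and 17 were below it by more than 2 SE. A value of 0 lay within 2 SE for 17 genes. A single common fold change thus described 24 of the 56 genes within 2 SE.

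The median was similar in the 3 GlnIND libraries. On the log2(CPM + 0.5) scale, the median difference from the mean of the 3 parental libraries was 0.31, 0.34 and 0.30 in GlnIND libraries 1 to 3, with 49, 49 and 51 of the 56 genes above 0. The parental libraries gave 0.04, -0.02 and 0.00 by the same measure. Set against single parental libraries, the mean of the GlnIND libraries was higher by a median of 0.27, 0.35 and 0.29 for parental 1, 2 and 3. The gap to the parental medians is set by the choice of the genes on these libraries and by centring on the parental mean, so it supports nothing.

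**Figure D2:**
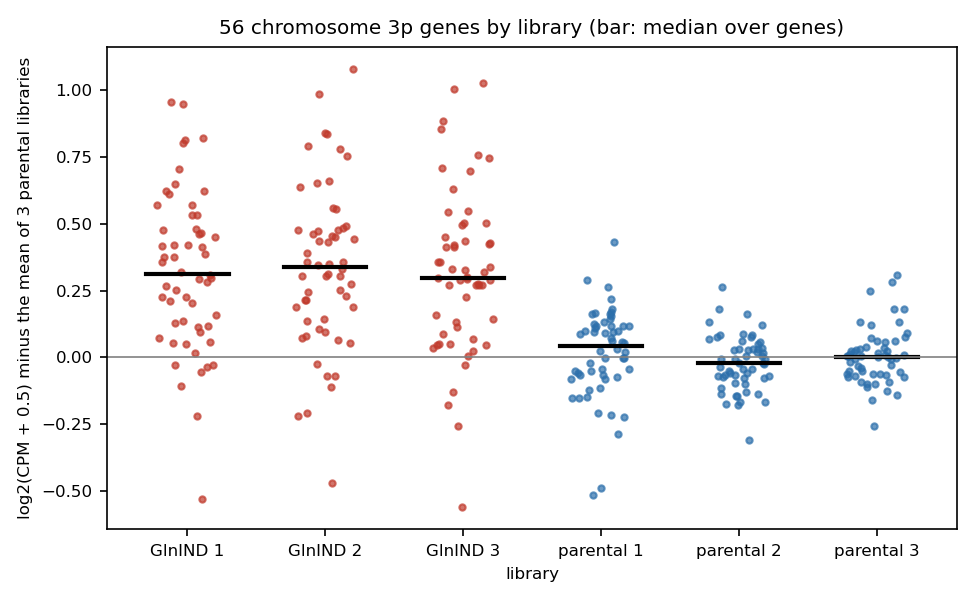
Difference of each of the 56 genes from the mean of the 3 parental libraries, as log2(CPM + 0.5) (y axis), in each library (x axis), with GlnIND in red and parental in blue. Each point is a gene and each bar is the median over genes. The GlnIND medians were 0.31, 0.34 and 0.30, and the parental medians were 0.04, -0.02 and 0.00.

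Parental library 1 stood apart from the other parental libraries for some of these genes. It was the highest parental library for 30 of the 56 genes and the lowest for 21, and in 11 genes it differed by more than 1.2-fold from the mean of the other 2. The median coefficient of variation was 2.87% among GlnIND libraries and 8.24% among parental libraries, and it was larger among parental libraries in 46 genes. These measures were not taken over all genes, so they show no trait particular to the 56. Over all genes, edgeR called 7853 with every library and 9280 without parental 1. Across the 56 genes, the log2 difference of parental 1 from parental 2 and 3 had a Spearman correlation of -0.45 with the GC content and 0.34 with the length of the longest transcript. The log2 fold change between groups had correlations of 0.08 with GC content and -0.04 with length. Without parental 1, the median difference from the parental mean on the log2(CPM + 0.5) scale was 0.32, with 50 genes above 0. That library moved 10 genes by more than 0.1 in log2 fold change, and their values without it are given where they are named.

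Among the 56, the genes nearer to GNL3 had smaller values. In order along the arm, the median log2 fold change was 0.38 in the first 19 genes (TRNT1 to MKRN2), 0.42 in the next 19 (IQSEC1 to CNOT10) and 0.15 in the last 18 (UBP1 to GNL3). This was a feature of the 56 as listed: the other tested genes of these stretches, split at MKRN2 and CNOT10, had medians of 0.44 (33 genes), 0.43 (44 genes) and 0.42 (181 genes). Across the 56 genes, the Spearman correlation of log2 fold change with order along the arm was -0.36, and with mean CPM it was -0.22. Neighbouring genes share their place on the arm, so these points are not independent.

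The 56 genes are next described by role. They were chosen on this contrast and the roles were assigned with results known, so counts and ranks of role groups support nothing. All 6 genes of DNA repair and topology were higher in GlnIND, at a median of 0.65 on the log2 scale. This was the highest median of the 8 role groups. FANCD2, which is ubiquitinated at stalled and crosslinked DNA, was at 112, 122 and 118 CPM in GlnIND libraries 1 to 3, against 55.9, 58.2 and 58.6 CPM in parental libraries 1 to 3. Its log2 fold change of 1.02 (SE 0.0679), or 2.03-fold, was the highest of the 56. The lowest GlnIND library was above the highest parental library. WDR48 (also UAF1), the activator of the deubiquitinase USP1 that acts on FANCD2, was at 135, 137 and 139 CPM in GlnIND libraries 1 to 3, against 83, 69.2 and 78 CPM in parental libraries 1 to 3. Every GlnIND library was again above every parental library, with a log2 fold change of 0.84 (SE 0.0772). XPC, the sensor of helix-distorting damage in nucleotide excision repair, was at 33.1, 34.6 and 32.5 CPM in GlnIND libraries 1 to 3, against 22.6, 22.6 and 21.2 CPM in parental libraries 1 to 3, a log2 fold change of 0.59 (SE 0.0855). TOP2B, a type II topoisomerase, was at 358, 362 and 367 CPM in GlnIND libraries 1 to 3, against 323, 239 and 251 CPM in parental libraries 1 to 3. Parental 1 was the highest of its group for TOP2B, and the log2 fold change of 0.42 (SE 0.103) was 0.56 without that library. OGG1, the glycosylase that removes oxidised guanine, had 0.70 (SE 0.108) and RAD18, the ligase that ubiquitinates PCNA, had 0.44 (SE 0.0758).

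In protein turnover, 4 genes had a median log2 fold change of 0.45. CRBN, the substrate receptor of a CUL4 ubiquitin ligase and the target of thalidomide-type drugs, was at 52.1, 53.3 and 53.9 CPM in GlnIND libraries 1 to 3, against 27.8, 28 and 24.4 CPM in parental libraries 1 to 3. Its groups did not overlap and its log2 fold change was 0.99 (SE 0.0846), or 1.99-fold. The others were NGLY1, a cytosolic N-glycanase, at 0.48 (SE 0.0765), the makorin ligase MKRN2 at 0.43 (SE 0.0736) and the calpain protease CAPN7 at 0.22 (SE 0.0766). CRBN overlaps TRNT1 in the annotation, as described with the overlapping genes.

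Of the 9 chromatin and transcription genes 8 were above 0, and their median was 0.28 on the log2 scale. KAT2B (also PCAF), a histone acetyltransferase, was at 68.8, 73.2 and 65.4 CPM in GlnIND libraries 1 to 3, against 45.7, 41.9 and 38.9 CPM in parental libraries 1 to 3, with every GlnIND library above every parental library and a log2 fold change of 0.71 (SE 0.086). SMARCC1, a core subunit of the BAF chromatin remodeller, was at 378, 388 and 378 CPM in GlnIND libraries 1 to 3, against 335, 304 and 303 CPM in parental libraries 1 to 3, again without overlap, at 0.28 (SE 0.063). SETD2, which trimethylates lysine 36 of histone H3, was at 149.9, 159 and 154 CPM in GlnIND libraries 1 to 3, against 177, 132 and 129 CPM in parental libraries 1 to 3. Its groups overlapped because parental 1 was above all GlnIND libraries, and its log2 fold change was 0.08 (SE 0.112) with that library and 0.23 without it. Leaving out other single libraries brought SETD2 as low as -0.03. TADA3, VGLL4, EAF1, BRPF1 and SETD5 had log2 fold changes of 0.36, 0.38, 0.29, 0.26 and 0.22. The CP2-family transcription factor UBP1 was the exception, at -0.06 (SE 0.077), turning to 0.04 with upper-quartile factors, to 0.10 with plain library totals and to 0.02 without parental 1.

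All 8 genes of RNA processing and translation were above 0, at a median of 0.34 on the log2 scale. DPH3, of the diphthamide pathway, had 0.54 (SE 0.0726), the deadenylase subunit CNOT10 had 0.42 (SE 0.0787), TATDN2 had 0.43 (SE 0.0945) and 0.31 without parental 1, and TRNT1, which adds the CCA end to tRNAs, had 0.38 (SE 0.0824). The RNA helicase DHX30 had 0.30 (SE 0.0892) and 0.19 without parental 1, and the tRNA methyltransferase THUMPD3 had 0.29 (SE 0.0763). LSM3, of the Sm-like rings that bind U6 RNA and decaying mRNA, was lower in the list at 0.09 (SE 0.0866). GNL3 (nucleostemin), a nucleolar GTPase at the inner end of the set, was at 292, 303 and 291 CPM in GlnIND libraries 1 to 3, against 317, 267 and 264 CPM in parental libraries 1 to 3. Its groups overlapped, at 0.06 (SE 0.0787), and the value crossed 0 when single libraries were left out, with a range of -0.0059 to 0.14.

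Of 9 genes of membrane traffic and lipid signalling, 7 were above 0, with a median of 0.29. ANKRD28, a regulatory subunit of protein phosphatase 6, was at 328, 334 and 345 CPM in GlnIND libraries 1 to 3, against 204, 177 and 179 CPM in parental libraries 1 to 3. MTMR14, a phosphoinositide phosphatase, was at 83.4, 82.1 and 80.1 CPM in GlnIND libraries 1 to 3, against 43, 50.7 and 49.7 CPM in parental libraries 1 to 3. Neither gene overlapped between groups, with log2 fold changes of 0.84 (SE 0.0714) and 0.78 (SE 0.0818). The ARF exchange factor IQSEC1 had 0.67 (SE 0.074), the ESCRT adaptor PDCD6IP (ALIX) had 0.31 (SE 0.0775), JAGN1 had 0.29 (SE 0.135) and 0.14 without parental 1, the palmitoyltransferase ZDHHC3 had 0.16 (SE 0.0597) and TBC1D5 had 0.08 (SE 0.0749). GOLGA4, a golgin of the trans-Golgi, was at 252, 254 and 245 CPM in GlnIND libraries 1 to 3, against 396, 259 and 246 CPM in parental libraries 1 to 3. Parental 1 alone was high for GOLGA4, so the log2 fold change of -0.26 (SE 0.154) became -0.02 without it. SACM1L, a lipid phosphatase of the endoplasmic reticulum, was at 88.8, 91.2 and 96.2 CPM in GlnIND libraries 1 to 3, against 103, 97.9 and 86.9 CPM in parental libraries 1 to 3, overlapping between groups at -0.06 (SE 0.0793), and became 0.03 under upper-quartile scaling and 0.09 under library totals.

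The cytoskeletal and motor genes had a median of 0.28 over 7 genes. BRK1, a WAVE complex subunit, had 0.56 (SE 0.0598), the mitochondrial transport adaptor TRAK1 had 0.47 (SE 0.0652), the microtubule proteins MAP4 and CLASP2 had 0.44 (SE 0.0628) and 0.28 (SE 0.0765). RHOA, the GTPase that controls actomyosin contraction, was at 852, 851 and 839 CPM in GlnIND libraries 1 to 3, against 833, 816 and 809 CPM in parental libraries 1 to 3. The groups did not overlap for RHOA, but the difference was small, at 1.03-fold and a log2 fold change of 0.05 (SE 0.0551). ARPC4, a subunit of the ARP2/3 actin nucleator, was at 139, 131 and 135 CPM in GlnIND libraries 1 to 3, against 79.5, 127 and 138 CPM in parental libraries 1 to 3. Parental 1 alone was low for ARPC4, and its log2 fold change of 0.24 (SE 0.165) was 0.02 without that library. DYNC1LI1, a light intermediate chain of cytoplasmic dynein, was at 133, 126 and 125 CPM in GlnIND libraries 1 to 3, against 148, 129.7 and 131 CPM in parental libraries 1 to 3. It overlapped between groups at -0.09 (SE 0.0715) and became 0.0011 under upper-quartile scaling and 0.06 under library totals.

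Metabolic and mitochondrial genes had a median of 0.38 over 5 genes. GPD1L, a glycerol-3-phosphate dehydrogenase-like protein, had 0.63 (SE 0.0943), the peroxisomal lyase HACL1 had 0.46 (SE 0.0945), TAMM41, of cardiolipin synthesis, had 0.38 (SE 0.116), and OXNAD1 had 0.12 (SE 0.0973). CMC1, an assembly factor of cytochrome c oxidase, was at 35.3, 30.9 and 31.8 CPM in GlnIND libraries 1 to 3, against 33.3, 34.3 and 40.9 CPM in parental libraries 1 to 3, overlapping between groups at -0.15 (SE 0.104), and it turned to 0.0042 with library totals.

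Signalling genes had the lowest median of the 8 groups, 0.11 over 8 genes. IRAK2, a kinase of Toll-like and interleukin-1 receptor signalling, was at 16.8, 17.6 and 16.5 CPM in GlnIND libraries 1 to 3, against 21.1, 25.9 and 26.9 CPM in parental libraries 1 to 3. All GlnIND libraries were below all parental libraries, and the log2 fold change of -0.54 (SE 0.114), or 0.688-fold, was the lowest of the 56. It stayed below 0 under each scaling tried and with each library left out, and was -0.65 without parental 1. MYD88, the adaptor upstream of IRAK2, was at 31.7, 34.3 and 33.6 CPM in GlnIND libraries 1 to 3, against 32.5, 32.4 and 32.8 CPM in parental libraries 1 to 3, with overlap at 0.03 (SE 0.0798). CMTM6, which stabilises PD-L1 at the cell surface, was at 273, 265 and 279.6 CPM in GlnIND libraries 1 to 3, against 258, 281 and 272 CPM in parental libraries 1 to 3, also with overlap, at 0.01 (SE 0.0611). Both crossed 0 with single libraries left out, down to -0.0032 for MYD88 and -0.03 for CMTM6, and CMTM6 was at -0.0011 with RLE factors. CTNNB1 (beta-catenin) was at 553, 561 and 559.9 CPM in GlnIND libraries 1 to 3, against 402, 456 and 486 CPM in parental libraries 1 to 3, without overlap, at 0.32 (SE 0.0751). OXSR1, a kinase activated by WNK kinases, was without overlap at 0.14 (SE 0.0551), CTDSPL was at 0.08 (SE 0.0728), and the calmodulin-dependent kinase CAMK1 was at 0.36 (SE 0.19), or 0.13 without parental 1. SH3BP5 had 0.43 (SE 0.237) at the lowest mean level of the 56, 4.03 CPM, and 0.55 without parental 1.

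**Figure D3:**
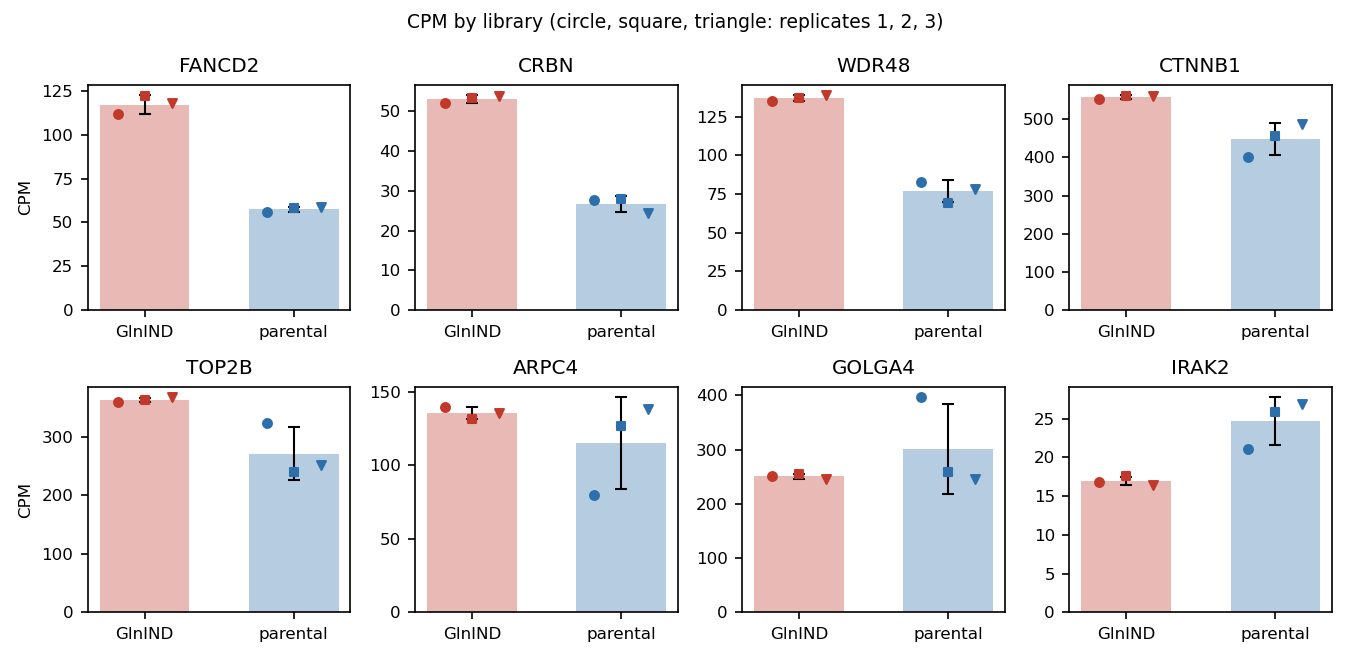
CPM (y axis) of 8 of the genes in GlnIND (red) and parental (blue) libraries, with circles, squares and triangles for replicates 1, 2 and 3, bars for the mean and error bars for the SD over 3 libraries. FANCD2, CRBN, WDR48, CTNNB1 and TOP2B were above the parental libraries in every GlnIND library, parental 1 alone was low for ARPC4 and high for GOLGA4, and IRAK2 was below in every GlnIND library.

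The genes at or below 0 were IRAK2, GOLGA4, CMC1, DYNC1LI1, SACM1L and UBP1. Scaling decided most of this short list: 6 genes were at or below 0 with TMM factors, 7 with RLE factors, 3 with upper-quartile factors and 2 with plain library totals, where IRAK2 and GOLGA4 remained. The median of all genes was 0.03 with TMM, 0.02 with RLE, 0.12 by upper-quartile scaling and 0.18 by library totals. Taken relative to it, the median of the 56 genes was 0.28 higher under each of these scalings.

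Counts of some of the 56 genes may hold reads of neighbours. The annotation places 26 of them over another gene row, and for 17 the overlapping row had more than 10% of the counts of the gene itself. Examples are TRNT1 with CRBN, OGG1 with CAMK1 and TADA3, TADA3 with ARPC4, WDR48 with GORASP1, CMC1 with AZI2, and GNL3 with GLT8D1. Whether reads were counted by strand is not given in the sources used here, so values of these pairs are uncertain.

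The promoters of the genes at the ends of the range are shown because they are the sequences in front of the most and least shifted transcripts, together with that of ZNF662, a zinc finger gene inside the interval with 0 counts in GlnIND. Each is RefSeq sequence of build GRCh38.p14, from 250 bases before to 50 bases after the annotated start, on the strand of the gene. Capitals mark matches to the motifs searched. Adjacent matches run together, as in the long run of capitals of IRAK2.
FANCD2 promoter, chr3:10026187-10026486, plus strand: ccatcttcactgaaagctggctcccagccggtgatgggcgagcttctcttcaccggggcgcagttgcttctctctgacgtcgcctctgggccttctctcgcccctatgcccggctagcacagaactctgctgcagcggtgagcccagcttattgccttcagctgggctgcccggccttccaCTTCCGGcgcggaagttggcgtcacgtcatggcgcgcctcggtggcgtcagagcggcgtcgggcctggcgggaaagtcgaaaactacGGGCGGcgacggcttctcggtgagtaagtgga
CRBN promoter, chr3:3179668-3179967, minus strand: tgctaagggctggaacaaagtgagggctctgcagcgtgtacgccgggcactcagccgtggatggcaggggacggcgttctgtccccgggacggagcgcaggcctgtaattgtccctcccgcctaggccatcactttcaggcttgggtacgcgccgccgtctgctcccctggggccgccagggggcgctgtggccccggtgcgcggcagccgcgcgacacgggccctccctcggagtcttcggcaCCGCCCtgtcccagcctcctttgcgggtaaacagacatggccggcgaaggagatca
IRAK2 promoter, chr3:10164669-10164968, plus strand: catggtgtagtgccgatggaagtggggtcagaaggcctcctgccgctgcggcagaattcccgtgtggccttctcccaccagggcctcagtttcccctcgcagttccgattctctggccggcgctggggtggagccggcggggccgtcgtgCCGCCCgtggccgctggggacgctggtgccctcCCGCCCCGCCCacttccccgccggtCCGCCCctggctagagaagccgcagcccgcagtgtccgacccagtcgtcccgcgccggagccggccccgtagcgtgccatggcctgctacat
ZNF662 promoter, chr3:42905892-42906191, plus strand: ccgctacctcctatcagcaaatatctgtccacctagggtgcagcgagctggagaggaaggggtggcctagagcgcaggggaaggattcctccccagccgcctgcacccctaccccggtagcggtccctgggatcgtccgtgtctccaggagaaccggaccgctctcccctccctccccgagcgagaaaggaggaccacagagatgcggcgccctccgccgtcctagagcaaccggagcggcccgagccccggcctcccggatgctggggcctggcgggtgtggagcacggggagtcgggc
The FANCD2 promoter held 29 CpG dinucleotides, 1 GC box and 1 ETS core, and the CRBN promoter held 29 CpG dinucleotides and 1 GC box. IRAK2, which was lower in GlnIND, had 31 CpG dinucleotides and 4 GC boxes, and ZNF662 had 24 CpG dinucleotides and none of the motifs.

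Promoter sequences were matched for 52 of the 56 genes, for 225 of the other tested genes between TRNT1 and GNL3, and for 27305 genes in all. The 52 and the 225 all passed the filter on low counts, whereas the full set includes genes that did not. The full set is thus unlike the other sets in expression, and its shares are no matched background. The median number of CpG dinucleotides was 29 in the 52, 26 in the 225 and 14 in all. The GC box (GGGCGG, either strand) was in 78.8% of the 52 promoters, 64.4% of the 225 and 44.6% of all. The ETS core (CCGGAAG, either strand) was in 25% of the 52, 20% of the 225 and 10.7% of all. The CCAAT box (CCAAT) was in 36.5%, 31.1% and 35.7%, and the TATA box (TATAAA) was in 5.77%, 4.89% and 12%, in the same order. The core of the amino acid response element (TGATGNAA), the site through which ATF4 acts in amino acid shortage, was in 1 of the 52 promoters (1.92%), in 0 of the 225 and in 3.67% of all. Matches were counted on both strands and may overlap, and they describe letters only.

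Other genes of the same stretch of the arm, not chosen by name, were tested to see which of them share the shift. RefSeq order placed 522 rows between TRNT1 and GNL3, of which 314 passed the filter, and 258 of those are outside the set of 56. Their median log2 fold change was 0.42, and 218 were above 0 (84.5%), beside 52.2% of all genes. edgeR called 159 of the 258 higher in GlnIND (61.6%), beside 28.4% of all genes, and 16 lower (6.20%), beside 27.9%. The lower count was 10 without GlnIND 3, 10 under upper-quartile scaling and 7 under library totals. With the 206 genes at or above the lowest mean CPM of the set, the median was 0.40. Of these, 135 were called higher (65.5%) and 14 lower (6.80%), beside the same shares of all genes. Every GlnIND library was above every parental library in 174 of the 258, and below in 20, beside 33.7% and 31.3% of all genes. The stretch overlaps the set of 56 in location, and the set was drawn from it with these results known.

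Outside this stretch the medians were smaller. The 82 tested genes from GNL3 to the inner end of 3p had a median of 0.23. Of these, 35 were called higher (42.7%) and 12 lower (14.6%). Without parental 1 their median was 0.31, and that of the 56 genes was also 0.31. With no filter it was 0.40, beside 0.46 for the other genes of the stretch. The 416 tested genes of the long arm (3q) had a median of 0.05, with 116 called higher (27.9%) and 81 lower (19.5%), beside 28.4% and 27.9% of all genes. The 12965 genes placed off chromosome 3 had a median of 0.01. No row beyond TRNT1 towards the tip passed the filter: the highest of 10 such rows had 34 counts over all libraries. A running median over 21 tested genes was above 0 in all 304 full windows centred in the stretch, which leaves out its first 10 genes as centres, lowest at 0.16 around CCR5AS and highest at 0.88 around NICN1. The running median did not drop at GNL3, where the list ends. It was 0.45 around GNL3, 0.43 around ACTR8 farther in and 0.0027 around PRICKLE2. Chromosome 3 as a whole, with a median of 0.23, ranked 3 of 23 chromosomes, after 19 (0.27) and 17 (0.23). Chromosome 13 was lowest at -0.46.

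**Figure D4:**
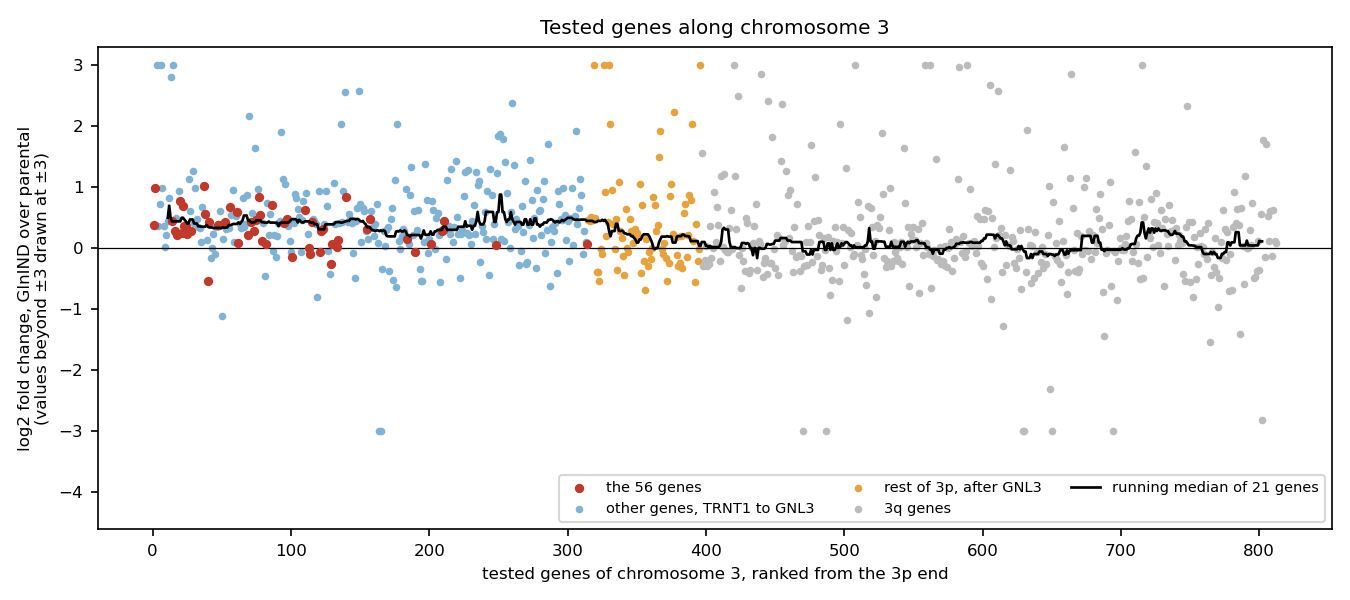
Log2 fold change of GlnIND over parental cells (y axis) for every tested gene of chromosome 3, ranked from the tip of 3p (x axis). Red points are the 56 genes, blue points other genes from TRNT1 to GNL3, orange points the rest of 3p and grey points 3q, with the running median of 21 genes in black. The running median, drawn from the first full window on, is above 0 in all 304 windows up to GNL3, and KRBOX1 and ZNF662 lie at the lower edge.

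Within the stretch, 40 of the 258 other genes were at or below 0 with TMM factors, 16 of them called lower. The 40 were not recounted with the other scalings. The strongest escapes were adjacent in the tested order. KRBOX1, a KRAB-box gene, had 0 counts in every GlnIND library, against 18.5, 19 and 21.5 CPM in parental libraries 1 to 3. Against a floor of 3 counts over the group, that is at least 474-fold lower in GlnIND (edgeR adjusted p 2.87e-07). ZNF662 had 0 counts in GlnIND, against 5.46, 4.23 and 3.69 CPM in parental cells, at least 108-fold lower (adjusted p 1.06e-05). The floor covers counting error only. Their neighbours in the tested order were not at 0: NKTR rose (log2 fold change 0.40, adjusted p 0.011), ZBTB47 rose (0.72, adjusted p 0.00353), and HIGD1A (0.09, adjusted p 0.411), GASK1A (-0.34, adjusted p 0.511), POMGNT2 (0.28, adjusted p 0.137) and SNRK (0.03, adjusted p 0.798) did not pass the test.

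Further genes of the stretch fell in GlnIND. PPARG, a nuclear receptor of lipid metabolism, was at 33.8, 32.9 and 28.8 CPM in GlnIND, against 71, 69.6 and 64.3 CPM in parental cells. It fell without overlap, with a log2 fold change of -1.10 (SE 0.0881) and an edgeR adjusted p of 7.26e-06. SUSD5 was at 36.7, 40.1 and 37.3 CPM in GlnIND, against 68.6, 66.9 and 63.7 CPM in parental cells, falling by 0.80 on the log2 scale (adjusted p 2.11e-05). MANF, a secreted protein of the endoplasmic reticulum stress response, was at 76.1, 78.2 and 70.3 CPM in GlnIND, against 140.0, 105 and 99.5 CPM in parental cells, and fell by 0.62 (adjusted p 0.00175). The chemokine receptor-like gene CCRL2 also fell (-0.54, adjusted p 0.00126). CSPG5 (-0.55, adjusted p 0.048), UCN2 (-0.49, adjusted p 0.0308) and the antisense row CCR5AS (-0.54, adjusted p 0.0494) were just inside the threshold and passed out of it with upper-quartile factors, with adjusted p of 0.0863, 0.0705 and 0.0915, and with library totals, with 0.127, 0.118 and 0.137. CSPG5 also lost its call when GlnIND 2, GlnIND 3, parental 1 or parental 2 was left out (adjusted p up to 0.159), as did UCN2 without GlnIND 1, GlnIND 3 or parental 2 (up to 0.116) and CCR5AS without GlnIND 2, GlnIND 3 or parental 3 (up to 0.16). ZNF660 was not called (-0.63, adjusted p 0.215) but passed without parental 2 (-0.97, adjusted p 0.0465).

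At the other end, some genes of the stretch rose far more than the 56. LRRN1, a leucine-rich repeat protein beside CRBN, was at 53.2, 62.6 and 59.5 CPM in GlnIND, against 4.17, 3.66 and 3.53 CPM in parental cells (3.94, adjusted p 3.17e-08). Its groups were far apart. The oxytocin receptor OXTR (2.81, adjusted p 7.26e-06), the ectonucleotidase ENTPD3 (2.58, adjusted p 1.02e-05) and SRGAP3 (5.03, adjusted p 2.44e-05, from 264 counts in GlnIND and 6 in parental cells) also rose, all by edgeR.

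At the borders, SUMF1, next after LRRN1, had 0.37, adjusted p 0.0178, and adjusted p was between 0.051 and 0.0727 without any 1 of the GlnIND libraries or parental 3. Beside GNL3, NT5DC2 (-0.09, adjusted p 0.478, with a value of 0.07 under library totals), SMIM4 (0.29, adjusted p 0.118), PBRM1 (0.11, adjusted p 0.254) and SNORD19B (0.47, adjusted p 0.318) did not pass the test, while GLT8D1 (0.45, adjusted p 0.000427) and SPCS1 (0.51, adjusted p 0.000504) rose. Without parental 1, NT5DC2 was called lower (-0.20, adjusted p 0.00187) and PBRM1 higher (0.19, adjusted p 0.000484), and without parental 3 SMIM4 was called higher (0.42, adjusted p 0.0252). PBRM1 and SMIM4 were also called higher under upper-quartile scaling (adjusted p 0.0402 and 0.0499) and under library totals (adjusted p 0.01 and 0.0289).

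Many of the 56 proteins work in complexes with subunits encoded on other chromosomes. Of 115 listed partners, 3 are on chromosome 3 and were left out, and 111 of the other 112 were tested in 16 complexes. The median log2 fold change of the partners was -0.08, with 24 called higher (21.6%, beside 28.4% of all genes), 42 lower (37.8%, beside 27.9%) and 45 not called, while the 18 3p genes that have partners had a median of 0.34. The partner median was -0.13 without parental 2 and became 0.0089 under upper-quartile scaling and 0.07 under library totals. Relative to the median of all genes it was -0.11 under each of these scalings. The 3p gene was above the median of its partners in 16 of 18 pairs, the others being IRAK2 and DYNC1LI1, and this direction follows in part from the choice of the 3p genes.

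Several falling partners are on chromosomes whose tested genes had low medians: -0.39 on chromosome 7, -0.29 on 12 and -0.46 on 13. ARPC1A, ARPC1B, LSM5 and LSM8 are on chromosome 7, ARPC3 and CNOT2 on 12, and CUL4A and USP12 on 13. Others are elsewhere, such as ACTR2 on chromosome 2 (median -0.02) and UBE2A on X (-0.03). The part of this in the values was not tested. In the ARP2/3 complex, 7 of the 8 partners of ARPC4 fell, beside 27.9% of all genes called lower. ARPC1B was at 32.5, 30.4 and 30.5 CPM in GlnIND, against 57.3, 81.3 and 83 CPM in parental cells (-1.25, adjusted p 4.51e-05), ARPC5L had -0.84, adjusted p 3.12e-05 and ACTR2, an actin-related core subunit, had -0.77, adjusted p 9.19e-06. ARPC5 did not pass the test (0.07, adjusted p 0.455). In the ligase of RAD18, both E2 partners fell: UBE2A was at 72.5, 67 and 67.5 CPM in GlnIND, against 153, 140.0 and 138 CPM in parental cells (-1.06, adjusted p 2.37e-06), and UBE2B had -0.49, adjusted p 0.000256. Beside XPC, its partners RAD23B (-0.96, adjusted p 2.4e-06) and centrin CETN2 (-1.002, adjusted p 9.42e-06) fell.

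FANCD2 was above each of its 13 tested Fanconi anaemia partners. Of these, 4 were called higher and 2 lower, beside 28.4% and 27.9% of all genes. FANCD2 and WDR48 were chosen as genes that were higher, so their place above their partners follows in part from that choice. Its partner FANCI rose (0.41, adjusted p 0.00138), as did FAAP100 (0.80, adjusted p 0.0119), and the translocase FANCM (-0.43, adjusted p 0.00175) and the E2 enzyme UBE2T (-0.39, adjusted p 0.00781) fell. WDR48 was above its 4 partners: USP12 fell (-0.62, adjusted p 7.03e-05), and USP1 (-0.06, adjusted p 0.529), USP46 (-0.21, adjusted p 0.0844) and WDR20 (-0.05, adjusted p 0.684) did not pass the test, with USP1 and WDR20 above 0 under upper-quartile scaling (both 0.04) and library totals (both 0.10). For CRBN, the adaptor DDB1 was at 719.7, 724 and 703 CPM in GlnIND, against 417, 448 and 475 CPM in parental cells and rose (0.68, adjusted p 2.32e-05). The cullins CUL4A (-0.56, adjusted p 6.45e-05) and CUL4B (-0.89, adjusted p 3.96e-06) fell, and RBX1 did not pass the test (0.27, adjusted p 0.118). CRBN and DDB1 were thus higher in GlnIND while the cullin scaffolds were lower.

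The complexes below have 14 tested partners or fewer each, and over all genes 28.4% were called higher and 27.9% lower. Their counts are descriptions only. Of the 14 SAGA and ATAC acetyltransferase partners of TADA3 and KAT2B, 5 rose and 4 fell, with a median of 0.10. Of the 12 BAF partners of SMARCC1, 3 rose and 2 fell, with a median of 0.02. The 4 MOZ/MORF acetyltransferase partners of BRPF1 were not called (median 0.03). Of the 5 ALIX and ESCRT partners of PDCD6IP, 2 rose and 2 fell (median -0.06). LSM3 stood beside 6 tested Sm-like partners, of which 5 fell, with a median of -0.40. Of the 8 WAVE partners of BRK1, 2 rose and 3 fell, among them CYFIP2 (2.85, adjusted p 1.14e-07) and NCKAP1 (-0.55, adjusted p 5.35e-05). Of the 10 CCR4-NOT partners of CNOT10, 1 rose and 5 fell. In the Myddosome, where IRAK2 and MYD88 act, IRAK1 (-0.81, adjusted p 0.000366) and IRAK4 (-0.50, adjusted p 0.00123) fell and TRAF6 (0.37, adjusted p 0.00998) rose. Of 7 catenin partners of CTNNB1, 3 rose and 1 fell: plakoglobin JUP (1.64, adjusted p 1.15e-05) rose and CSNK1A1 (-0.46, adjusted p 0.000102) fell. Of the 8 dynein partners of DYNC1LI1, 1 rose, the heavy chain DYNC1H1 (1.32, adjusted p 1.41e-06), 2 fell, DYNC1I2 (-0.28, adjusted p 0.00526) and DYNLRB1 (-0.38, adjusted p 0.00384), and 5 were not called.

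**Figure D5:**
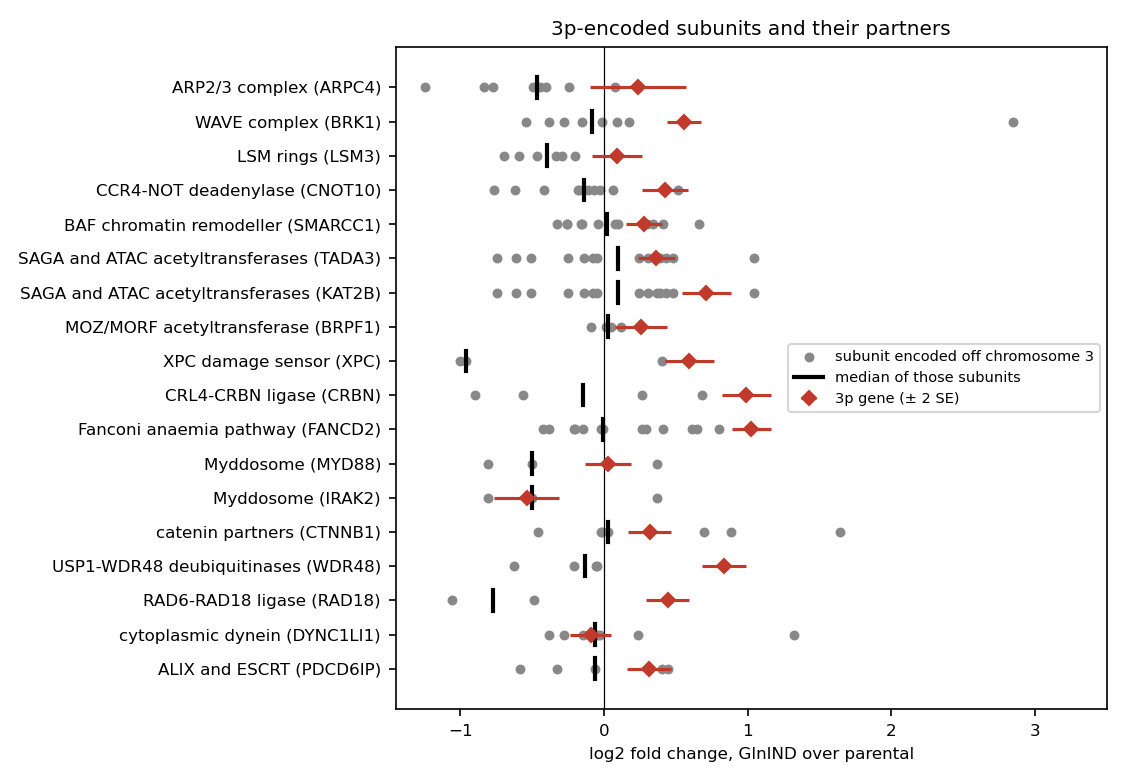
Log2 fold change of GlnIND over parental cells (x axis) for 18 of the 3p genes (red diamonds, bars of 2 standard errors) and for the subunits of their complexes encoded off chromosome 3 (grey points), with the median of those subunits as a black line, 1 row per gene (y axis). The diamond lies right of the line in 16 of 18 rows, and the ARP2/3, RAD18 and XPC partners are mostly below 0.

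Paralogs on other chromosomes were tested for 22 of the genes. The 22 tested paralogs had a median log2 fold change of -0.16, with 6 called higher (27.3%, beside 28.4% of all genes), 9 lower (40.9%, beside 27.9%) and 7 not called, against a median of 0.27 for the 3p genes they belong to. The 3p gene was above its paralog in 18 of 22 pairs, a direction that follows in part from the choice of the 3p genes. BRPF3 (-0.51, adjusted p 0.000206), STK39 (-0.68, adjusted p 0.000167), TFCP2 (-0.66, adjusted p 8.18e-05), KMT2E (-0.76, adjusted p 0.0024) and MKRN1 (-0.41, adjusted p 0.00155) fell, beside BRPF1, OXSR1, UBP1, SETD5 and MKRN2. In the 4 pairs with the paralog above, KAT2A (1.04, adjusted p 0.000119) rose beside KAT2B, CAMK1D (1.37, adjusted p 3.15e-06) beside CAMK1, JUP beside CTNNB1 and SH3BP5L (0.54, adjusted p 0.00315) beside SH3BP5. TOP2A (0.32, adjusted p 0.00397) and IQSEC2 (0.56, adjusted p 0.00365) also rose, below TOP2B and IQSEC1. KMT2E and MKRN1 are on chromosome 7, whose tested genes had a median of -0.39, and TFCP2 is on 12 (-0.29). STK39 is on chromosome 2 (-0.02) and BRPF3 on 6 (0.01). Of those that rose, KAT2A, JUP and TOP2A are on chromosome 17 (0.23). The part of this in the values was not tested. All calls of paralogs are from the edgeR fit over all genes.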

How the data were processed

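RNA from 6 libraries, 3 of GlnIND and 3 of parental MDA-MB-231 cells, was measured as poly(A) RNA-seq. The authors deposited raw counts for each gene symbol, in a table for every library and in a matrix of them all. Per the submitters' processing notes, FastQC, STAR, featureCounts and DESeq were used with build hg19; versions, annotation, strand setting and handling of multiply mapped reads are not given in the sources used here. The matrix held the same counts with the names of replicates 1 and 3 exchanged within each group; numbers here follow the per-library tables. Of 28265 rows, 8283 were at 0 throughout, and 27599 were placed by RefSeq (GRCh38.p14), 26933 by the current symbol and 666 by an older one, for gene order only; a further 666 rows were not placed.

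From the counts, edgeR 4.0.16 (R 4.3.3) fitted group alone with TMM factors and the quasi-likelihood test, after its default filter (minimum count 10, minimum total 15), and p-values were adjusted by Benjamini-Hochberg over 13949 genes, with a threshold of 0.05. It called 7853 (56.3%). The common biological coefficient of variation was 9.79%. CPM were computed here from TMM-scaled totals. The fit was tested on simulated counts with 200 changed genes. That is far fewer than the 7853 called here, so the simulation does not give error rates for these data. Separate cultures are not stated, so p-values reflect the spread among 3 libraries a group, possibly a technical one.

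The members and all lists (roles, partners, paralogs, markers) were chosen with earlier results of these data known. Named members with values in every library are the 5 highest and 5 lowest log2 fold changes and CRBN, FANCD2, XPC, SETD2, SMARCC1, KAT2B, TOP2B, CTNNB1, RHOA, MYD88, CMTM6 and GNL3; ARPC4 was added after its values were seen. Of the other tested genes between TRNT1 and GNL3 with a mean of at least 1 CPM, the 10 lowest and 5 highest are named, except 1 that is not reported here, with 3 tested genes beside TRNT1 and beside GNL3, and the neighbours of KRBOX1, also added after its values were seen. Alternatives were RLE and upper-quartile factors, library totals, no filter, a filter of 1 CPM in 3 libraries, each library left out, a block for replicate number, DESeq2 1.42.0 and limma-voom (limma 3.58.1).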

Additional observations from a re-analysis of the deposited data

How the results depend on the processing

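Over all genes, edgeR called 7853 genes, and 6516 to 9280 with 1 library left out. The 9280 were called without parental 1, and any other library left out gave 7774 or fewer. DESeq2 called 7801 and limma-voom 7939. With upper-quartile factors, the median log2 fold change was 0.41 for the 56 genes, 0.51 for the other genes from TRNT1 to GNL3 (10 called lower), 0.32 for the rest of 3p, 0.14 for 3q, 0.0089 for partners and -0.072 for paralogs. With library totals, these were 0.47, 0.58 (7 called lower), 0.38, 0.20, 0.070 and -0.010. All are shifted by the scaling, which moved the median of all genes. With no filter, the median of the 56 minus that of all genes was 0.24, the rest of 3p was at 0.40 and 3q at 0.11, as more genes of low count entered. With 1 library left out, the median of the 56 was 0.30 to 0.35, its difference from all genes 0.28 to 0.33, its interquartile range 0.34 to 0.40 and the number above 0 was 47 to 50. The other genes of the stretch had 0.37 to 0.45, with 124 to 166 called higher and 10 to 22 lower, the rest of 3p 0.17 to 0.31, 3q 0.03 to 0.06, partners -0.13 to -0.090 (19 to 32 higher, 37 to 51 lower) and paralogs -0.19 to -0.15. No row beyond TRNT1 was tested, so no alternative gives its median.

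The replicate numbers did not pair the libraries: deviations of same-numbered libraries correlated at -0.0629, 0.0299 and -0.037, and not every library correlated best with its own number. With the replicate number as a block, 7303 genes were called, the median of the 56 was 0.32, and 151 other genes of the stretch were called higher and 14 lower. CCR5AS lost its call with the block (adjusted p 0.0535). Groups of 3 libraries bound the precision of every value, and SH3BP5, the lowest in CPM of the 56 genes, had the largest SE (0.237).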
